A study of Mus musculus with 4 samples.

Results

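Arterial and descending vasa recta endothelial cells of the mouse kidney were taken from single-cell RNA-Seq (scRNA-Seq) libraries of whole kidney. The cells were chosen by their counts of unique molecular identifiers (UMIs, each standing for 1 captured RNA molecule): 200 to 5000 detected genes, under 50% mitochondrial UMIs, at least 5 UMIs and at least 15 per 10000 from the endothelial genes Emcn, Pecam1, Kdr, Flt1, Egfl7 and Cdh5, at least 2 UMIs from Sox17 and Gja5 together, and fewer than 2 UMIs from the glomerular endothelial genes Ehd3, Gata5 and Sost together. Of 58660 deposited barcodes, 34789 passed the limits on genes and mitochondrial UMIs, 3593 of these were endothelial, and 569 met the whole rule.

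All mice were male, of strain C3H/HeJ and 18 weeks old. Slc5a2 is the gene of the glucose carrier SGLT2 of the proximal tubule. The mice carried either wild-type SGLT2 (WT) or a homozygous missense change in Slc5a2 (SP, for Sweet Pee). From 10 weeks of age they ate a normal diet (ND) or a high-fat diet (HFD) with 60% of its calories from fat, for 8 weeks. Each pairing of genotype and diet, written WT-ND, WT-HFD and likewise for SP, gave 1 library, and how many mice went into a library was not given. The Slc5a2 change was present throughout the body of SP mice. Kidneys were dissociated enzymatically at 37 °C. Since no condition had a second library, no difference between conditions was tested. Every interval given is a 95% interval for counting error only, and differences between mice and between conditions cannot be told apart.

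Blood reaches the glomeruli through renal arteries and arterioles, and part of the efferent outflow of the deep glomeruli runs down to the medulla in the descending vasa recta. Arterial endothelium is known for the transcription factor Sox17, the gap junction protein connexin 40 (Gja5) and Notch signalling. Endothelium of the descending vasa recta carries the urea transporter UT-B (Slc14a1) and the water channel aquaporin-1 (Aqp1). Urea and water cross the vessel wall through these proteins. The descending vessels thereby take part in the countercurrent exchange that keeps the medulla hypertonic. The ascending vasa recta are fenestrated vessels marked by Plvap.

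Where 4 values follow each other, their order is that of WT-ND, then WT-HFD, then SP-ND, then SP-HFD. The rule found 131, 114, 144 and 180 cells in them. Of the endothelial cells they made up 14.9% (12.6 to 17.4), 14.2% (11.9 to 16.8), 17.4% (14.9 to 20.2) and 16.6% (14.5 to 18.99). These 4 intervals overlapped. As a share of all cells that passed the limits, the arterial and vasa recta cells were 1.21% (1.01 to 1.43), 1.18% (0.970 to 1.41), 2.13% (1.80 to 2.51) and 2.41% (2.07 to 2.78) in that order, and endothelial cells altogether were 8.11%, 8.28%, 12.2% and 14.5%. The higher share in both SP libraries was therefore shared with the rest of the endothelium. The libraries held 93142028, 115117649, 111617794 and 90728590 UMIs, of which the chosen cells held 768127, 815794, 948609 and 1156429. Their median depth was 4169, 6126.5, 4995.5 and 5315 UMIs per cell, and their median mitochondrial share was 6.15%, 4.40%, 6.87% and 5.18%. WT-HFD cells were the deepest and had the lowest mitochondrial share. None of the chosen barcodes occurred among the chosen cells of a second library, although 380 barcode sequences were shared between libraries over all deposited barcodes.

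**Figure D1:**
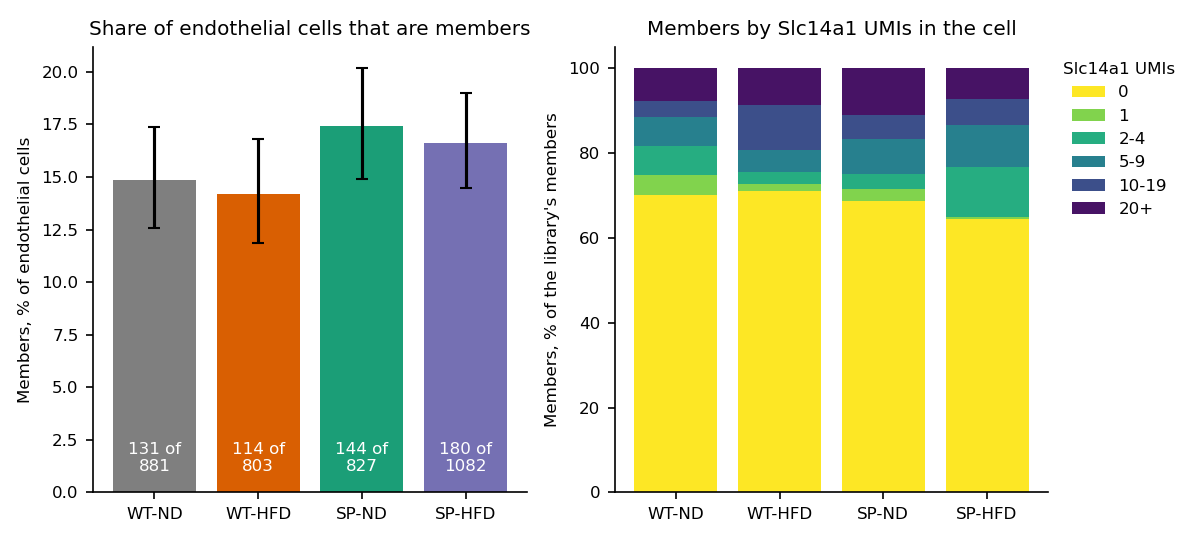
Arterial and vasa recta endothelial cells in each of the 4 libraries. Left, bars give their share of endothelial cells in percent with 95% exact binomial intervals, which lie between 11.9 and 20.2% and overlap. Right, stacked bars give the percent of these cells by their number of Slc14a1 UMIs, most cells having none.

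The name was checked against markers, of which Sox17, Gja5, Cdh5 and Pecam1 had themselves been used to select the cells. Sox17 was at 827, 590, 902 and 738 UMIs per 1000000 (CPM, pooled over the cells of a library), and Gja5 was at 186, 112, 105 and 184 CPM. Bmx, a kinase gene of arterial endothelium that the rule did not use, was at 89.8, 45.4, 71.7 and 70.0 CPM. Gja4, which encodes the arterial connexin 37, was at 378, 326, 324 and 362 CPM. Markers of lymphatic endothelium were near 0, with Lyve1 and Prox1 between 0 and 5.27 CPM. Slc14a1, the vasa recta marker, was at 570, 744, 805 and 627 CPM, and the data showed that a minority of the cells carried it.

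Slc14a1 was not detected in most cells, and most of the others had 5 or more of its UMIs. No UMI of Slc14a1 was found in 92 of 131, 81 of 114, 99 of 144 and 116 of 180 cells, while a single UMI was found in only 6, 2, 4 and 1 cells. Cells with 2 or more UMIs, named Slc14a1+ here, numbered 33, 31, 41 and 63, or 25.2% (18.0 to 33.5), 27.2% (19.3 to 36.3), 28.5% (21.3 to 36.6) and 35% (28.1 to 42.4). Of these 168 cells, 130 had 5 or more. At least 1 Slc14a1 UMI was found in 0.995%, 1.17%, 2.56% and 2.36% of lymphocytes, which do not belong to the kidney vessel wall. Lymphocytes were cells with 2 or more UMIs of Cd3d, Cd3e, Cd3g, Nkg7 and Cd79a together. They were also required to have no UMI of the endothelial genes of the rule. Cells that had taken up RNA of those genes were thus left out, and the lymphocyte shares can understate endothelial RNA in other cells. The median depths of the lymphocytes were 2163, 3772, 2497 and 3183 UMIs. Whether free RNA in the droplets or doublets gave this Slc14a1 was not tested. Cells with at least 1000 UMIs were also thinned to 1000 UMIs, and the others were left out. This kept 131, 114, 143 and 180 arterial and vasa recta cells, and 192, 255, 112 and 331 lymphocytes. Of these, 19.1%, 25.4%, 21.0% and 25.6% of the arterial and vasa recta cells still had an Slc14a1 UMI, and at most 0.893% of the lymphocytes did. Differences between the libraries in the share of Slc14a1+ cells have no replicate check.

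Mgp, which encodes matrix Gla protein, an inhibitor of calcification of the artery wall, marked other cells than Slc14a1 did. Cells with 2 or more UMIs of Slc14a1 and fewer of Mgp numbered 28, 31, 41 and 63, those with Mgp and not Slc14a1 numbered 31, 20, 23 and 35, and those with both numbered 5 in WT-ND and 0 in each other library. The cells with both were 0.879% of all 569. Neither gene reached 2 UMIs in 67, 63, 80 and 82 cells, 51.3% of the total. The name vasa recta was thus borne out by Slc14a1 in 29.5% of the cells. The others carried the name arterial by the rule, some with Mgp in addition, and were not all alike. Among the 388 with no Slc14a1 UMI, 62 had 2 or more UMIs of the vasa recta gene Aqp1.

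**Figure D2:**
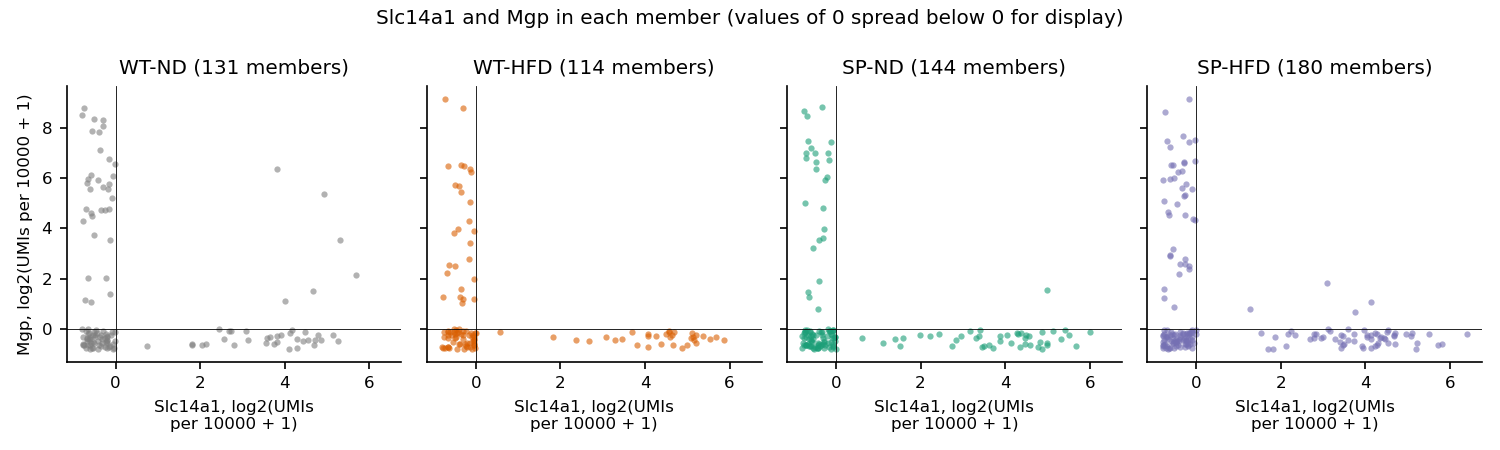
Slc14a1 against Mgp in every arterial and vasa recta endothelial cell of each library, both as log2(UMIs per 10000 + 1), with cells at 0 spread slightly for display. Points lie along the axes: 5 of 569 cells, all in WT-ND, have 2 or more UMIs of each gene.

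Aqp1 followed Slc14a1 among the cells. It had 2 or more UMIs in 154 of the 168 Slc14a1+ cells (91.7%) and in 62 of the 388 cells with no Slc14a1 UMI (15.98%). In lymphocytes, chosen as above to have no endothelial UMI, Aqp1 had 2 or more UMIs in 8 of 201, 7 of 257, 1 of 117 and 2 of 339 cells. The mean Aqp1 level over the libraries was 7059 CPM in Slc14a1+ cells and 408 CPM in cells without Slc14a1, and the log2 ratio lay between 3.15 and 5.77 in the 4 libraries. Scin, which encodes the actin-severing protein scinderin, had 2 or more UMIs in 153 of 168 and in 61 of 388 cells. Stmn2, a microtubule-binding stathmin, showed the opposite order, with 7 of 168 (4.17%) and 181 of 388 cells (46.6%). Fbln5, which encodes the elastic fibre protein fibulin-5, was found on both sides, in 76 of 168 and 213 of 388 cells. Plvap, the diaphragm protein of fenestrae, was likewise found on both sides, in 88 of 168 and 156 of 388 cells.

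Among 5068 genes with at least 100 UMIs over the compared cells, 72 were at least 2-fold higher in Slc14a1+ cells in all 4 libraries (1.42% of genes) and 72 were at least 2-fold lower (1.42%). These genes describe the split and carry no test, since the cells were split on expression. Beyond Aqp1, the gene Cryab of the chaperone alpha-B-crystallin averaged 1212 CPM in Slc14a1+ cells against 50.1 CPM in the others, with log2 ratios of 4.17 to 4.92. Akr1b3, the aldose reductase that makes the osmolyte sorbitol, averaged 2739 against 155 CPM, with log2 ratios of 3.34 to 4.70. The inositol carrier Slc5a3, another gene of osmolyte accumulation, was higher in Slc14a1+ cells by 2.07 to 3.70 on the log2 scale. Hpgd, which degrades prostaglandins, averaged 822 against 37.6 CPM, and Gdf15, a stress-induced hormone, averaged 360 against 21.4 CPM. Each of these 5 genes stood on the side of the urea transporter in all 4 libraries.

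Matrix genes of the artery wall were among those on the other side. Mgp averaged 64.6 CPM in Slc14a1+ cells and 2762 CPM in cells without Slc14a1, and Eln, the gene of elastin, averaged 9.83 against 232 CPM. Fbln2, which encodes the matrix protein fibulin-2, averaged 16.8 against 411 CPM. Pi16, a peptidase inhibitor gene of flow-exposed endothelium, averaged 33.8 against 603 CPM, and Stmn2 averaged 20.7 against 497 CPM. Calca, which encodes the vasodilator calcitonin gene-related peptide, had no UMI in the Slc14a1+ cells of any library and was at 137, 112, 138 and 165 CPM in the cells without Slc14a1. Cytl1, a secreted protein gene of arterial endothelium, had 1, 0, 0 and 0 UMIs in Slc14a1+ cells and was at 339, 127, 220 and 268 CPM in the others. Not every gene of the descending vasa recta list followed its name: Fxyd6 was lower in Slc14a1+ cells by 5.21 to 2.84 on the log2 scale, and Crip1 was lower by 2.36 to 1.79.

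The limit of 2 Sox17 and Gja5 UMIs fell within a gradient of depth. Of the 569 cells, 153 had exactly 2 such UMIs (33, 36, 36 and 48 by library). Just outside, 315 endothelial cells that met the other conditions had exactly 1. Median depth was 2289 UMIs in endothelial cells with none, 2601 with 1, 3106 with 2 and 6781 with 3 or more. The share of cells with 2 or more Slc14a1 UMIs was 1.32%, 10.8%, 22.2% and 32.2% in the same order. Fbln5 was at 38.5, 221, 335 and 684 CPM, and Plvap was at 1866, 1146, 745 and 370 CPM. The cells just inside the limit were thus intermediate in depth, in Fbln5 and in Plvap. Of 224 endothelial cells with 2 or more Slc14a1 UMIs, 168 (75%, 68.8 to 80.5) met the rule, in shares of 78.6%, 73.8%, 75.9% and 73.3% by library. A further 388 endothelial cells had both 2 or more Sox17 and Gja5 UMIs and 2 or more UMIs of the glomerular genes, and were left out by the rule.

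Other endothelial cells served to show where arterial and vasa recta cells differed, again as a description because expression chose both sides. The comparison sets were 1092 endothelial cells below both limits with 2 or more Plvap UMIs (the Plvap set, which takes in peritubular capillaries and ascending vasa recta) and 1032 cells with 2 or more glomerular and fewer than 2 arterial UMIs (the glomerular set). Against the Plvap set, 198 of 7406 genes were at least 2-fold higher in arterial and vasa recta cells in all 4 libraries (2.67%) and 146 were at least 2-fold lower (1.97%). Against the glomerular set, 245 of 8050 genes were higher (3.04%) and 228 were lower (2.83%).

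Secreted ligands, matrix genes and receptors were among the genes most above their level in the Plvap set. Cxcl12, the chemokine that binds CXCR4, averaged 199 CPM against 5.47 CPM in the Plvap set. Vegfc, the growth factor of lymphatic vessels, averaged 195 against 10.7 CPM, the Notch ligand gene Jag1 averaged 319 against 20.1 CPM, and Bmp2 averaged 38.0 against 1.59 CPM. Fbln5 averaged 620 against 23.6 CPM, with log2 ratios of 3.83 to 5.29. Lgr5, the receptor of R-spondins, averaged 135 against 2.58 CPM, with log2 ratios of 4.96 to 6.39. The tetraspanin gene Tspan8 averaged 1201 against 37.3 CPM and Egfl8 averaged 301 against 8.85 CPM. Among genes lower than in the Plvap set, Igfbp5, an IGF-binding protein, averaged 327 against 2486 CPM, with log2 ratios of -3.37 to -2.63, and Car8 averaged 1.77 against 83.9 CPM. Against the glomerular set, Slc14a1 averaged 687 against 1.91 CPM, Aqp1 averaged 2772 against 113 CPM and Fbln2 averaged 270 against 4.37 CPM. No UMI of Lgr5 or Cytl1 was found in the glomerular set of any library. Sapcd1 was the other way, at 3.31 against 248 CPM, as was the semaphorin gene Sema5a, at 23.1 against 391 CPM.

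**Figure D3:**
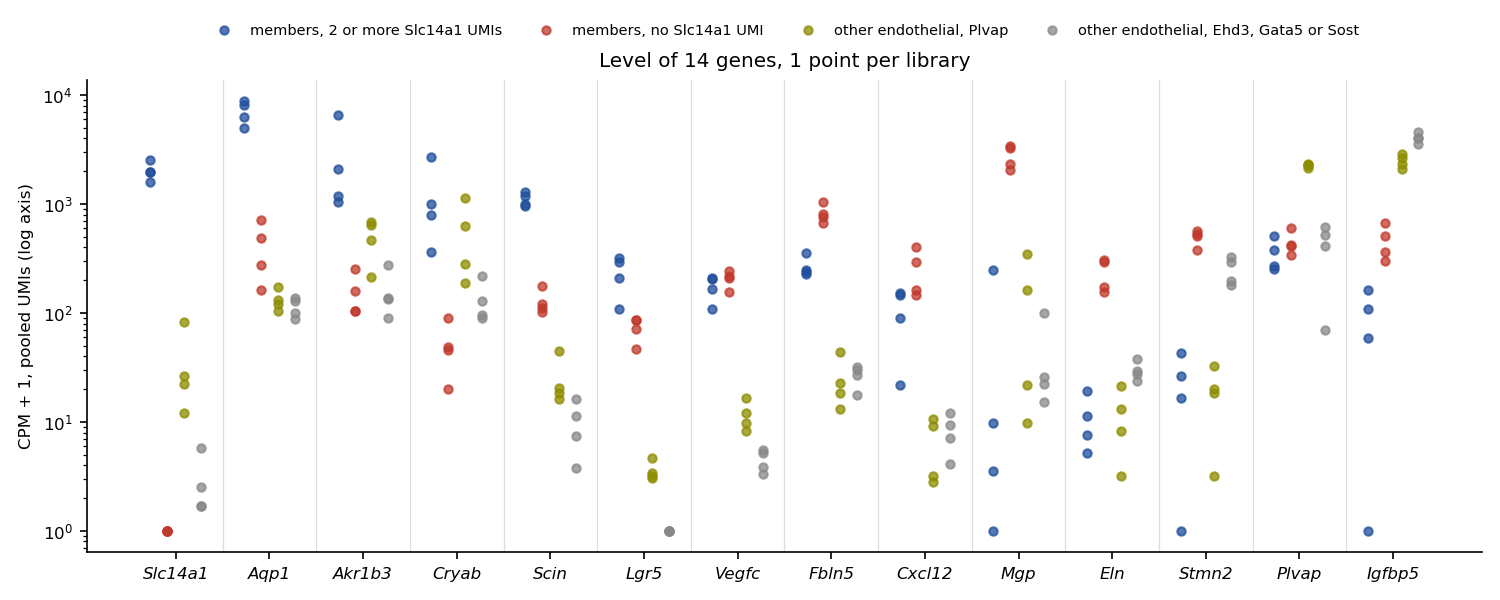
Levels of 14 genes in Slc14a1+ cells, cells without Slc14a1, the Plvap set and the glomerular set, as pooled CPM + 1 on a log axis, with 1 point per library. Aqp1, Akr1b3, Cryab and Scin are highest in Slc14a1+ cells. Among the arterial and vasa recta cells, Mgp, Eln and Stmn2 are highest in cells without Slc14a1. Plvap is highest in the Plvap set and Igfbp5 in the glomerular set.

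Diet was compared in pooled counts of 5160 genes with at least 100 UMIs over the 569 cells, leaving out the 11 genes of the rule, and a gene was counted when its CPM differed 2-fold or more. In WT, 102 genes were higher on HFD (1.98% of genes) and 101 were lower (1.96%). In SP, 59 were higher (1.14%) and 57 were lower (1.1%). With the libraries scaled by the trimmed mean of M-values, 80 were higher and 114 lower in WT and 46 were higher and 66 lower in SP. The WT and SP comparisons share no library. Of the genes measured, 20 were higher on HFD in both (0.388%) and 20 were lower in both (0.388%). Among them, 6 that were higher and 17 that were lower either averaged less in arterial and vasa recta cells than in cells outside the endothelium, among them the proximal tubule genes Lrp2, Slc27a2 and Miox, or were mitochondrial, and are not described as genes of these cells. This left 14 genes higher and 3 lower, among 4044 genes measured that met the same conditions. Before genes were left out the counts were equal, at 20 each, so the unequal counts are not read as a result on diet. The 4 higher genes with the smallest ratios, which the naming rule passed over, were Selenoh, Stmn1, Sesn3 and the clock gene Per1.

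Fabp4, which encodes the fatty acid-binding protein 4 (chr3:10204088-10208576, minus strand, mm10), carries fatty acids within endothelium. Its level was 1452 CPM on ND and 6017 CPM on HFD in WT, and 1696 CPM and 6022 CPM in SP. Both HFD libraries lay above both ND libraries, by 2.05 (1.96 to 2.15) on the log2 scale in WT and by 1.83 (1.75 to 1.91) in SP. Without 7 WT-HFD cells rich in Cd36, which are described further on, the WT ratio was 1.22 (1.12 to 1.32). The median cell had 2.13, 15.9, 5.25 and 18.2 Fabp4 UMIs per 10000 in the 4 libraries. The UMIs were unevenly spread, and the 10 cells with most held 49.2%, 58.5%, 39.8% and 34.8% of them. The ratio was largest in different cells in WT and SP. In WT, the log2 ratio was 0.63 (0.49 to 0.77) in Slc14a1+ cells and 3.14 (2.99 to 3.3) in cells without Slc14a1. Of the 3658 Fabp4 UMIs behind the latter value in WT-HFD, 2372 lay in the same 7 cells rich in Cd36. Without these cells the log2 ratio was 1.81 (1.65 to 1.98). In SP it was 2.67 (2.55 to 2.80) in Slc14a1+ cells and 0.95 (0.84 to 1.07) in cells without Slc14a1. These splits rest on 31 to 116 cells per library, and the difference between them was not tested.

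Higher Fabp4 on HFD was not particular to these vessels. In the Plvap set its level was 3375, 7909, 4783 and 9868 CPM, a log2 ratio of 1.23 (1.15 to 1.31) in WT and 1.04 (1.00 to 1.09) in SP. In the glomerular set it was 107, 976, 547 and 1955 CPM, a log2 ratio of 3.19 (2.93 to 3.45) in WT and 1.84 (1.68 to 2.00) in SP. Outside the endothelium it was at 11.8, 47.8, 15.4 and 34.1 CPM. At least 1 Fabp4 UMI was found in 0.995%, 3.50%, 2.56% and 3.24% of lymphocytes, against 77 of 131, 80 of 114, 91 of 144 and 135 of 180 arterial and vasa recta cells. The lymphocytes had been chosen to have no UMI of the endothelial genes of the rule.

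Another 5 named genes were 2-fold higher on HFD in WT and in SP. Stc1, the gene of the glycoprotein hormone stanniocalcin-1 (chr14:69029238-69041804, plus strand), was at 80.7 CPM on ND and 221 CPM on HFD in WT, and at 72.7 and 258 CPM in SP, log2 ratios of 1.45 and 1.82. Slco4a1, an organic anion carrier of the family that moves thyroid hormone, was at 22.1 and 96.8 CPM in WT and 31.6 and 87.3 CPM in SP, log2 ratios of 2.13 and 1.47. Tmem252, a transmembrane protein gene (chr19:24674008-24682233, plus strand), was at 43.0 and 148 CPM in WT and 54.8 and 161 CPM in SP, log2 ratios of 1.79 and 1.55. Gem, a small GTP-binding protein, was at 59.9 and 151 CPM in WT and 49.6 and 122 CPM in SP. Rnf19b, a ubiquitin ligase gene, was at 9.11 and 36.8 CPM in WT and 17.9 and 44.1 CPM in SP. Its log2 ratio in SP was 2.22 (1.04 to 3.63) in Slc14a1+ cells and -0.04 (-1.34 to 1.31) in cells without Slc14a1. Gem was at 128, 428, 92.4 and 267 CPM in Slc14a1+ cells and at 32.7, 34.5, 21.0 and 25.8 CPM in cells without Slc14a1. Over all arterial and vasa recta cells, the 2 HFD libraries were for each of these genes above the 2 ND libraries.

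The remaining named genes rested on few cells. Rbp7, a retinol-binding protein gene (chr4:149449687-149454978, minus strand), had 6, 456, 41 and 142 UMIs, or 7.81, 559, 43.2 and 123 CPM. Its level in WT-HFD came from 7 cells, which are described further on. Ptn, the gene of the growth factor pleiotrophin, was at 43.0 and 104 CPM in WT and at 3.16 and 23.4 CPM in SP, but its UMIs came from 10, 8, 3 and 3 cells. The histone gene Hist1h2ap had 2, 97, 2 and 20 UMIs in 2, 3, 2 and 4 cells. The histone gene Hist1h1b had 0, 90, 0 and 11 UMIs, and those on HFD came from 2 cells in WT and 1 cell in SP. For these genes a few cells decided the value of a library.

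The genes expressed by the cells that were 2-fold lower on HFD in both genotypes were Fos, Atf3 and Socs3. Fos, the immediate early transcription factor (chr12:85473890-85477273, plus strand), was at 915 CPM on ND and 454 CPM on HFD in WT, and at 794 and 202 CPM in SP. The log2 ratio in WT was -1.01 (-1.20 to -0.83), and that in SP was -1.98 (-2.20 to -1.76). Atf3, a stress-induced transcription factor gene, was at 297 and 132 CPM in WT and at 313 and 119 CPM in SP, log2 ratios of -1.16 and -1.39. Socs3, the feedback inhibitor of cytokine signalling through JAK kinases (chr11:117966079-117970047, minus strand), was at 104 and 30.6 CPM in WT and at 68.5 and 14.7 CPM in SP, log2 ratios of -1.76 (-2.47 to -1.10) and -2.22 (-3.08 to -1.43). For all 3 genes, each HFD library was below each ND library.

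**Figure D4:**
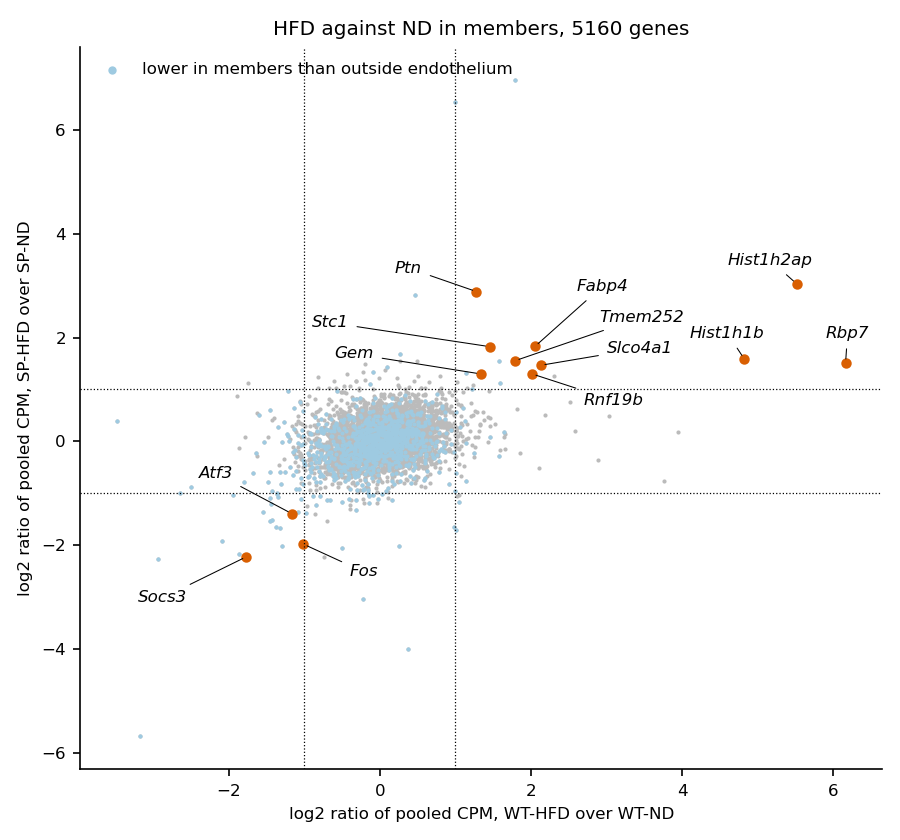
Log2 ratio of pooled CPM on HFD over ND in arterial and vasa recta endothelial cells, WT on the horizontal and SP on the vertical axis, for 5160 genes. Dotted lines mark 2-fold, orange points are the named genes, with Fabp4 at 2.05 and 1.83 and Socs3 at -1.76 and -2.22, and blue points are genes with lower levels in these cells than outside the endothelium.

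Of the list of immediate early and stress genes, 17 were measured. In WT none was 2-fold higher and 2 were 2-fold lower, with a median log2 ratio of -0.42 against 0.05 over all 5160 genes. In SP none was higher and 7 were lower, with a median of -0.88 against 0.05. Over all genes, 1.96% were 2-fold lower in WT and 1.1% in SP. Egr1, an immediate early zinc finger gene, was at 267, 161, 522 and 112 CPM in the 4 libraries, log2 ratios of -0.73 in WT and -2.23 in SP. Junb had log2 ratios of -0.70 and -1.54, Zfp36, which promotes decay of cytokine mRNA, had -0.86 and -1.39, and Fosb had -0.31 and -1.32. The inducible heat shock gene Hspa1b was at 1407, 724, 1355 and 572 CPM, while the constitutive Hspa8 had log2 ratios of 0.26 and 0.57. The median mitochondrial share was also lower on HFD in both genotypes (4.40% against 6.15% and 5.18% against 6.87%), and its part in these values was not tested.

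The same list was read in the other cell sets. In the glomerular set the median log2 ratio was -0.84 in WT, against -0.04 over all genes in that set, and -1.34 in SP, against 0.06. In the Plvap set the medians were -0.03 and -0.04, and outside the endothelium they were 0.23 and 0.25. Fos itself had log2 ratios of -1.64 and -2.07 in the glomerular set and -0.40 and -0.24 in the Plvap set. Outside the endothelium Fos was at 369, 385, 366 and 445 CPM. The differences between these sets were not tested, and the values outside the endothelium pool all other cells of a library. Within the arterial and vasa recta cells, the Fos log2 ratio was -1.49 (-1.88 to -1.11) in Slc14a1+ cells and -1.01 (-1.24 to -0.79) in cells without Slc14a1 in WT, and -1.54 (-1.82 to -1.28) and -2.88 (-3.3 to -2.49) in SP.

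**Figure D5:**
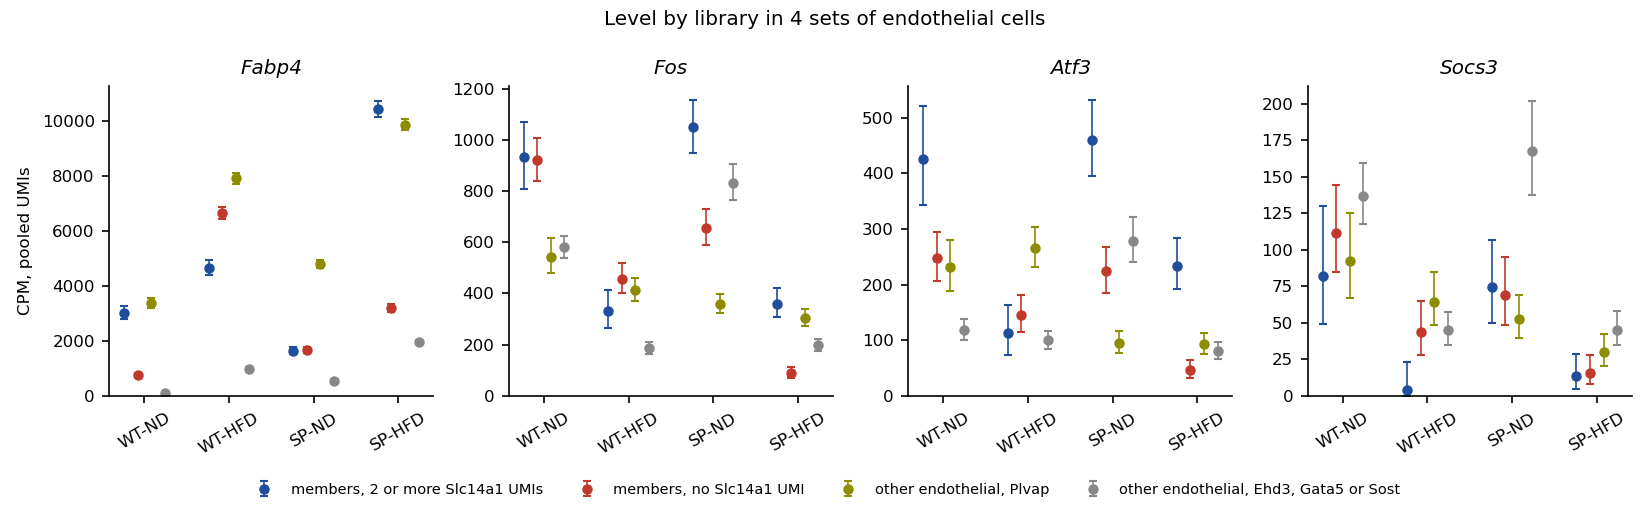
Pooled CPM of Fabp4, Fos, Atf3 and Socs3 in each library, with 95% Poisson intervals for counting error. The sets drawn are Slc14a1+ cells, cells without Slc14a1, the Plvap set and the glomerular set. Fabp4 is higher on HFD in every set. Fos is lower on HFD by more than 2-fold in Slc14a1+ cells, in cells without Slc14a1 and in the glomerular set, and Socs3 in the glomerular set.

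Of 12 measured genes of fatty acid handling, 9 had a log2 ratio of HFD over ND above 0 in WT and 11 in SP. In WT 6 were 2-fold higher and none lower, with a median log2 ratio of 0.82, and in SP 1 was higher and 1 lower, with a median of 0.38, against 0.05 over all genes in each. Over all genes, 1.98% were 2-fold higher in WT and 1.14% in SP. In WT the median was -0.03 in Slc14a1+ cells and 1.74 in cells without Slc14a1, and in SP it was 0.46 and 0.36. Neither the difference between genotypes nor that between these cells was tested. The WT calls for Cd36, Lpl and Gpihbp1 rest on 7 cells described next. All 7 had no Slc14a1 UMI and so entered the median of 1.74, which is not given without them. Fabp5, a second fatty acid-binding protein, was at 74.2 and 201 CPM in WT and at 114 and 222 CPM in SP. Gpihbp1, which anchors lipoprotein lipase to the capillary wall, was at 151 and 392.3 CPM in WT and at 222 and 298 CPM in SP. Cd36, the fatty acid receptor, was at 23.4, 362, 22.1 and 25.1 CPM. Of its 295 UMIs in WT-HFD, 275 lay in 7 cells with at least 6 each. The 6 genes higher in WT were Cd36, Fabp4, Fabp5, Gpihbp1, Tcf15 and Lpl.

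Those 7 cells were unlike the other 107 of WT-HFD. They averaged 4236 CPM of Cd36 against 26.6 CPM, 6532 CPM of Rbp7 against 42.6 CPM and 36540 CPM of Fabp4 against 3379 CPM. Meox2, a partner of Tcf15 in the transcription of fatty acid uptake genes, had 17 UMIs in 5 of the 7 cells and none in the 107. Lpl, the gene of lipoprotein lipase, had 65 UMIs in 6 of them. They had no UMI of Slc14a1 or of Mgp, and the fat cell genes Adipoq and Cidec and the heart muscle gene Myh6 had none either. The fat cell gene Plin1 had 1 UMI in the 7 cells and 0 in the 107. Their median mitochondrial share was 17.1%. In the other libraries 0, 0 and 2 cells had 6 or more Cd36 UMIs, the 2 in SP-HFD with 13 UMIs together, and the 7 cells were picked after their values were seen. Without them the log2 ratio of HFD over ND in WT was 1.22 (1.12 to 1.32) for Fabp4, 2.45 (1.17 to 4.0) for Rbp7, 1.13 (0.67 to 1.61) for Fabp5, 1.10 (0.00 to 2.28) for Tcf15, which had 47 of its 70 UMIs in WT-HFD in these cells, 0.74 (0.40 to 1.09) for Gpihbp1, 0.18 (-0.81 to 1.19) for Cd36 and -1.37 (-2.37 to -0.45) for Lpl. Without these cells, Fabp4, Rbp7, Fabp5 and Tcf15 thus stayed more than 2-fold higher, Tcf15 with an interval down to no difference, Gpihbp1 and Cd36 did not, and Lpl was lower.

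Akr1b3 and Cryab, which were highest in Slc14a1+ cells, had their highest level in WT-HFD. Akr1b3 (chr6:34302434-34317478, minus strand) was at 370, 2122, 547 and 924 CPM, log2 ratios of HFD over ND of 2.52 in WT and 0.76 in SP. Within Slc14a1+ cells alone it was at 1051, 6602, 1184 and 2118 CPM, in the same order. Cryab (chr9:50751325-50756636, plus strand) was at 116, 857, 436 and 340 CPM, log2 ratios of 2.89 in WT and -0.36 in SP, and at 361, 2696, 991 and 799 CPM in Slc14a1+ cells. In the Plvap set WT-HFD was the highest for Cryab, at 189, 1137, 628 and 284 CPM, but not for Akr1b3, at 213, 635, 686 and 464 CPM. Slc5a3 was at 58.6, 174, 188 and 154 CPM, log2 ratios of 1.57 and -0.29. Outside the endothelium Slc5a3 was at 156, 231, 348 and 315 CPM, above its level in these cells in each library. Cryab was at 255, 502, 337 and 599 CPM there, above its level in these cells in WT-ND and SP-HFD, and Akr1b3 was below it in each library, at 75.4, 154, 99.0 and 129 CPM. The part of such RNA in the levels was not tested. Of the 5 measured genes of the osmolyte list, 2 were 2-fold higher and none lower in WT, with a median of 0.73, and none was called in SP, with a median of -0.16. Over all genes, the median was 0.05 in each, and 1.98% were higher in WT and 1.14% in SP.

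The descending vasa recta list and the lists on arterial identity, matrix, interferon, Notch, glucose use and flow had at most 2 genes past 2-fold on HFD in a genotype. Over all genes, 1.98% were higher and 1.96% lower on HFD in WT, 1.14% were higher and 1.1% lower in SP, and the median was 0.05 in each. Of 10 descending vasa recta genes, Cryab and Slc5a3 were higher in WT and none was called in SP, with medians of -0.15 and 0.10. Of 16 arterial identity genes, 1 was higher and 1 lower on HFD in WT and none in SP, with medians of -0.02 and 0.43. Depp1 was the higher one, at 113, 310, 217 and 295 CPM. Cytl1 was the lower one, at 230 and 85.8 CPM in WT and at 121 and 162 CPM in SP. Of 15 genes of the vessel wall matrix, Bgn, the gene of biglycan, was lower on HFD in WT and none was called in SP, with medians of -0.29 and 0.31. Mgp (chr6:136872435-136875823, minus strand) was at 2389, 1385, 1281 and 1966 CPM, Eln at 204, 107, 101 and 186 CPM, and Ltbp4, which binds latent TGF-beta in the matrix, at 529, 362, 308 and 441 CPM. In these 3 genes WT-ND and SP-HFD were the higher pair. Fbln5 (chr12:101746565-101819055, minus strand) was at 626, 607, 478 and 770 CPM. Of 12 interferon-induced genes none was called, with medians of 0.31 in WT and 0.49 in SP, and Isg15 was at 146, 206, 138 and 232 CPM. Of 9 measured genes of the Notch list, Rbpj was lower in WT and Hes1 was lower in SP, with medians of -0.08 and 0.35. No gene of the glucose use list (10 measured) or of the flow response list (9 measured) was 2-fold different on HFD in either genotype, and the flow-induced transcription factor gene Klf2 was at 1548, 1690, 1704 and 1407 CPM.

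Genes that set vascular tone varied singly. Of 13 measured, 1 was higher and 2 lower on HFD in WT, and 2 were higher and none lower in SP, with medians of -0.03 and 0.23 against 0.05 over all genes in each. Over all genes, 1.98% were higher and 1.96% lower in WT, and 1.14% and 1.1% in SP. Edn1, the gene of the vasoconstrictor endothelin-1, was at 241, 249, 235 and 274 CPM, and Nos3, the endothelial nitric oxide synthase, was at 111, 96.8, 113 and 143 CPM. Neither differed by 2-fold on HFD in WT or in SP. Ednrb, the endothelin receptor that clears the peptide and releases nitric oxide in endothelium, was at 102, 242, 183 and 149 CPM, log2 ratios of 1.25 in WT and -0.30 in SP. Pde3a, a phosphodiesterase that degrades cAMP, was at 98.9, 29.4, 32.7 and 70.9 CPM, log2 ratios of -1.75 in WT and 1.12 in SP. It had 0, 1, 0 and 1 UMIs in Slc14a1+ cells, and in cells without Slc14a1 its log2 ratios were -1.81 (-2.55 to -1.12) and 0.97 (0.36 to 1.62). Ace, the angiotensin-converting enzyme, was at 63.8, 17.2, 17.9 and 32.9 CPM, with WT-ND the highest.

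Genotype was compared within each diet, in pairs of libraries that the diet comparisons had also used. On ND, 58 genes were 2-fold higher in SP (1.12%) and 66 were lower (1.28%). On HFD, 43 were higher (0.833%) and 33 were lower (0.64%), a split of 56.6% higher. Under scaling by the trimmed mean of M-values these became 37 higher and 43 lower, or 46.3% higher. Without the top cell of each gene they became 74 higher and 31 lower, or 70.5% higher. On both diets, 4 genes were higher in SP (0.0775%) and 9 were lower (0.174%). All 4 of the higher genes, Klk1, Hsd11b2, Lyz2 and S100g, had lower levels in these cells than outside the endothelium, as did 8 of the 9 lower genes. Ptn was the remaining one, in the few cells given above, with log2 ratios of -3.76 on ND and -2.16 on HFD. In Slc14a1+ cells its direction on HFD was reversed, as given in the section on processing. No gene with higher levels in arterial and vasa recta cells than outside the endothelium was 2-fold higher in SP on both diets. For Rbp7 this rested on the 7 WT-HFD cells rich in Cd36. Its log2 ratio was 2.47 on ND and -2.19 on HFD, and 1.53 (0.97 to 2.13) on HFD with those cells taken out. They were taken out of WT-HFD alone, after their values were seen, so no direction is read from the 1.53.

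Of the 10 genes of the descending vasa recta list, 2 were 2-fold higher and none lower in SP on ND, with a median log2 ratio of -0.08 against 0.04 over all genes, and none was higher and 1 lower on HFD, with a median of -0.14 against 0.03. Over all genes, 1.12% were higher and 1.28% lower on ND, and 0.833% and 0.64% on HFD. On ND, the log2 ratio of SP over WT was 1.91 for Cryab, 1.68 for Slc5a3, 0.57 for Akr1b3 and 0.50 (0.33 to 0.67) for Slc14a1. On HFD it was -1.33 for Cryab, -0.18 for Slc5a3, -1.20 for Akr1b3 and -0.25 (-0.40 to -0.09) for Slc14a1, and no difference between the diets was tested. Outside the endothelium the ratio of Slc5a3 was 1.16 on ND and 0.45 on HFD, and that of Cryab was 0.40 and 0.25. Aqp1, at 2664, 1862, 3632 and 2931 CPM, was higher in SP by 0.45 (0.37 to 0.53) on ND and 0.65 (0.57 to 0.74) on HFD. The chemokine gene Cxcl12, at 241, 281, 153 and 123 CPM, was lower in SP on both diets, by -0.66 (-0.98 to -0.33) and -1.19 (-1.51 to -0.88). Of the 7 measured genes of methionine metabolism and of the histone methyltransferase complex PRC2, none was called for diet and 1 for genotype, Jarid2 on HFD, at 19.6 CPM in WT-HFD and 44.1 CPM in SP-HFD. Mat2a, which makes S-adenosylmethionine, had log2 ratios of SP over WT of -0.10 (-0.43 to 0.23) on ND and 0.10 (-0.19 to 0.39) on HFD.

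RNA of other kidney cells was present at low levels and differed between the libraries. The 14 proximal tubule genes summed to 0.763%, 0.296%, 0.203% and 0.179% of the UMIs of arterial and vasa recta cells, against 4.50%, 3.45%, 1.73% and 1.87% outside the endothelium, with Kap the most abundant, at 4412, 1612, 646 and 981 CPM. WT-ND held most of it. Of 13 measured proximal tubule genes, 10 were 2-fold lower on HFD in WT and 5 in SP, and 1 was higher in each. The shares over all genes were 1.96% lower and 1.98% higher in WT, and 1.1% and 1.14% in SP. The 6 genes of the thick ascending limb summed to 0.0316%, 0.0341%, 0.119% and 0.0585%, with Umod at 148, 178, 554 and 327 CPM. The 8 distal and collecting duct genes summed to 0.0167%, 0.0119%, 0.0421% and 0.0276%. Both of these groups were higher in the SP libraries. Podocyte genes summed to 0.0230%, 0.0253%, 0.0236% and 0.0309%, most of it Thsd7a, which endothelial cells of these libraries themselves carried. Of the smooth muscle genes, Acta2 was at 29.9, 14.7, 49.5 and 57.9 CPM. Lyz2, a macrophage gene, had 2, 1, 153 and 203 UMIs, which lay in few cells of the SP libraries, and the macrophage gene C1qa had 0, 2, 0 and 0. Fibroblast, lymphocyte, neutrophil and erythroid lists each summed to at most 44.3 CPM in any library. The part of this RNA in the differences given above was not tested, and genes with higher levels outside the endothelium were left out of the named genes for that reason.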

How the data were processed

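The authors deposited, for each of the 4 kidney libraries (10x Genomics 3′ chemistry), a matrix of raw UMI counts per barcode over 32285 genes. The submitters' processing notes name Cell Ranger 2.1.1 and mm10, whereas the headers of the matrices name a later release. Every deposited barcode held at least 500 UMIs. Doublets were not removed. Counts were summed over the cells of a set within a library and given as CPM, unscaled by gene length. Levels carry Poisson intervals, ratios conditional binomial intervals and shares Clopper-Pearson intervals, all exact and at 95%. UMIs of 1 cell are not independent, so these are too narrow. A count of 0 was set to a floor of 3 counts in ratios. With 1 library per condition no test was made. Named for diet and genotype were the 10 genes in each direction past 2-fold in both independent comparisons with the largest smaller ratio, leaving out the genes of the rule, mitochondrial and ribosomal genes, and genes with a lower mean CPM than outside the endothelium. For the endothelial sets, genes were ranked by their least extreme library (12 in each direction, and 10 for Slc14a1), and a selection is given. Other genes come from the 30 lists. The cells, lists and comparisons were chosen with earlier results of these data known. Coordinates are those of GENCODE on mm10. Python 3.11.15, numpy 2.4.6, scipy 1.17.1 and pandas 2.3.3 were used, and the scripts were tested on simulated data. As alternatives, doublets were removed (Scrublet in scanpy 1.11.5), library scaling was taken from edgeR 4.0.16 in R 4.3.3, and the limits on genes, cells and UMIs were varied.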

Additional observations from a re-analysis of the deposited data

Results flagged for a closer look

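In 5 cases a gene moved past 2-fold in opposite directions under the same contrast. The difference between the contrasts was not tested in any of them, since each rests on single libraries. For HFD over ND, the log2 ratio of Lpl was 1.01 in WT and -1.71 in SP, and that of Pde3a was -1.75 in WT and 1.12 in SP. For SP over WT, the log2 ratio of Pde3a was -1.60 on ND and 1.27 on HFD, that of Cryab was 1.91 on ND and -1.33 on HFD, and that of Rbp7 was 2.47 on ND and -2.19 on HFD. The WT-HFD values of Lpl and Rbp7 rest on the 7 cells rich in Cd36. With them removed from WT-HFD alone, the ratio of Rbp7 for SP over WT on HFD turned to 1.53 (0.97 to 2.13). That of Lpl for HFD over ND in WT turned to -1.37 (-2.37 to -0.45). These cells were picked after their values were seen, and the 2 SP-HFD cells with 6 or more Cd36 UMIs were kept. In SP-HFD, 9 cells held 93 of the 142 Rbp7 UMIs. The turned values show that 7 cells decided the sign, and no agreement between the contrasts can be read from them. Pde3a had at most 1 UMI per library in Slc14a1+ cells.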

How the results depend on the processing

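No paired analysis was made, and each condition has 1 library. Over 610 alternative values of 61 named gene and comparison pairs, 547 remained past 2-fold the same way, 96 moved beyond their interval and 13 changed sign. With a limit of 3 Sox17 and Gja5 UMIs, the cells were 11.1%, 9.71%, 13.1% and 12.2% of the endothelium, and with cells of another class removed the WT-HFD share was 17.4%. Without a filter on low counts, 3695, 3472, 3481 and 3593 genes passed 2-fold for diet in WT, diet in SP, genotype on ND and genotype on HFD, against 203, 116, 124 and 76. With at least 400 UMIs they were 40, 24, 22 and 10. In Slc14a1+ cells, an alternative chosen after seeing the data, they were 158, 83, 67 and 75 of 2144 genes measured, against 5160, or 7.37%, 3.87%, 3.13% and 3.50% against 3.93%, 2.25%, 2.40% and 1.47%. For genotype on HFD, 43 genes higher and 33 lower became 74 and 31 without the top cell of each gene, and on ND 58 and 66 became 36 and 63 with doublets removed and 99 and 84 as a mean over cells. Of 72 list medians, 3 lay 0.5 or more from that of all genes, 6 with cells of another class removed, 5 with a limit of 3 UMIs, 6 without a filter, 5 of 68 in cells without Slc14a1 and 10 of 64 in Slc14a1+ cells. The cause was not tested, apart from the filters, which change the genes measured. In Slc14a1+ cells the sign changed for diet in WT in Hist1h1b (-0.14), Ptn (-4.39), Gpihbp1 (-0.69) and Lpl (-1.36), for diet in SP in Hist1h1b (-0.22) and Pde3a (-1.80), and for genotype on HFD in Ptn (2.79), Fos (0.11), Lpl (0.50) and Pde3a (-0.91), although Hist1h1b had no UMI in these cells and Pde3a at most 1 in a library. In SP, diet also changed sign for Rnf19b in cells without Slc14a1 (-0.038) and for Hist1h1b as a mean over cells (-0.17) or without its top cell (-0.27). Depth limits the calls on genes with few UMIs.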

Other observations

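Some further values belong to no comparison above. A doublet caller marked 945, 753, 365 and 446 of the cells that passed the limits, and 2, 6, 4 and 5 of the arterial and vasa recta cells. The antigen presentation gene Cd74 had 213, 129, 126 and 117 UMIs in these cells, a log2 ratio of SP over WT of -1.06 (-1.39 to -0.74) on ND and -0.64 (-1.02 to -0.27) on HFD. Outside the endothelium Cd74 was at 352, 877, 650 and 1312 CPM, above its level in these cells in each library, and the part of that RNA was not tested. Angpt2, the antagonist ligand of the receptor Tie2, was at 19.5, 61.3, 30.6 and 33.7 CPM. The von Willebrand factor gene Vwf was at 67.7, 25.7, 28.5 and 38.9 CPM, with WT-ND the highest.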
